A study of Mus musculus with 12 samples.

Results

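Metallothioneins are small, cysteine-rich proteins that bind zinc and copper ions. Their genes Mt1, Mt2 and Mt3 were followed here along the rostral to caudal axis of the embryonic mouse neocortex. The 3 genes were chosen by name, with earlier results of these arrays in view, among which Mt1 was one of the genes lower rostrally. Its rostral to caudal ratios are therefore given below as a description, with no test. By symbol in the platform's probe table, 2 of the 3 genes had a probe, Mt1 and Mt3, with 1 probe each. For Mt2 the probe table used here named 0 probes, and its expression was not analysed here. Both measured genes entered the set of 14418 features tested, which came from 21998 probes.

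Tissue came from embryos at stage E13.5, from the outbred strain MF1 or the inbred strain C57 (C57Bl\6 in the series' design text), with no other treatment or allele in the labels. Each strain gave 3 pools, each of 3 embryos per the labels (the design text gives a lower minimum), and every pool was split into RNA of the rostral and RNA of the caudal end of the neocortex. Each pair competed on 2 arrays with the dyes Cy3 and Cy5 exchanged, so 12 arrays stand for 6 pools, and the pool is the replicate. Whether the pools within a strain stem from separate litters is not in the labels, so p-values measure the spread between these pools, which may in part be technical.

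Values below are rostral over caudal log2 ratios, relative to the median of its array: a negative value means less transcript rostrally. Such a ratio says nothing of how abundant a transcript was, and in pooled tissue fewer cells of a type cannot be told apart from less RNA per cell. Between 17998 and 20997 probes had a value on an array. The SD of the ratios on an array, estimated from the median absolute deviation, averaged 0.49 in MF1 and 0.74 in C57. Each array held 1 strain, so a difference between strains cannot be told apart from a difference between the sets of arrays. The sources used here do not name the numerator channel, so the sign is the likely one: Cy5 over Cy3 was assumed. With it Nr2f1, a nuclear receptor known for high caudal expression, was at -1.14 ± 0.57 (SD, n = 6 pools). Etv5, a transcription factor downstream of FGF signals, was at 0.54 ± 0.05. Its probes disagreed in MF1, at 1.096 and 0.078 in pool 1, and the first was at -0.04 in pool 3. The small SD of Etv5 is thus that of averaged probes. Both probes of Nr2f1 were below 0 in every pool, with means of -1.38 and -0.90. In MF1 the second ran only from -0.32 to -0.08. Since the sign rests on such genes, their direction is no finding here. Both arrays of a pool, turned to the same direction, were compared by Spearman correlation across probes. It was 0.115, 0.043 and 0.237 in MF1 pools 1 to 3. In C57 pools 1 to 3 it was -0.303, -0.164 and -0.133, so across probes the dye exchange was not reproduced in C57. These correlations are a description, and probes are not independent replicates.

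Metallothionein genes lie side by side in a cluster. In the mouse, Mt1 and Mt2 are active in most tissues and respond to zinc, cadmium, glucocorticoids and oxidative stress. The zinc-sensing transcription factor Mtf1 drives them by binding short metal response elements near their start sites. Mt3 is found mainly in the nervous system and is known for not responding to metals in the way of Mt1 and Mt2. Mt4, which is not among the 3 genes, belongs to stratified epithelia and serves here as a family member not known for expression in cortex. In the RefSeq gene table (GRCm38.p6) the order on chromosome 8 was Mt4, Mt3, Mt2 and Mt1, with the noncoding gene Gm39227 between Mt3 and Mt2.

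The start regions of both measured members are shown because they carry the family's best known control sequence to a different extent. Each holds 300 bases on the plus strand of GRCm38.p6, 250 before the RefSeq start site and 50 from it on, and capitals mark matches to a metal response element. Mt1 is at chr8:94178839-94179138 and Mt3 at chr8:94152357-94152656.
Mt1: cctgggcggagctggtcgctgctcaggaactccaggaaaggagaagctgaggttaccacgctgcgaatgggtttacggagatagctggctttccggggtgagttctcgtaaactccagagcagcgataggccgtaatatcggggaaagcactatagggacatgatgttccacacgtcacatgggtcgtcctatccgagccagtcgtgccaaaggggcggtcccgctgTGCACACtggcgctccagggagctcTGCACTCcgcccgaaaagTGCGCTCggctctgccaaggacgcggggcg
Mt3: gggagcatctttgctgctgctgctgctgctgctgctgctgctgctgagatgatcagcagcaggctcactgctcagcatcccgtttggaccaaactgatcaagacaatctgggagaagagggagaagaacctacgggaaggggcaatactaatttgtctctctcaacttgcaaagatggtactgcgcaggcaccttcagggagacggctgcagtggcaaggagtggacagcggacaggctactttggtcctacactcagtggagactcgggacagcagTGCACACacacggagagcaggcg

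The motifs searched were TGCACNC and TGCGCNC, on both strands, with overlaps between matches allowed. Mt1 held 3 matches, at positions -23 to -17, 3 to 9 and 21 to 27 from the start site, counted from 1 at the first transcribed base. Mt3 held 1, at 28 to 34. The start regions of Mt2 and Mt4 held 4 and 1. Among 32851 RefSeq start regions of the same length, 25.7% held at least 1 match, 1.97% at least 3 and 0.517% at least 4. A single match, as in Mt3 and Mt4, is thus common, and 3 or more are not. A match says that these letters stand in the window and nothing about binding in this tissue. The window follows 1 start site per row of the table. For Mt1 that start may lie upstream of the one in common use, so positions hold for the RefSeq start of this table, and sequence further downstream was not searched.

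**Figure D1:**
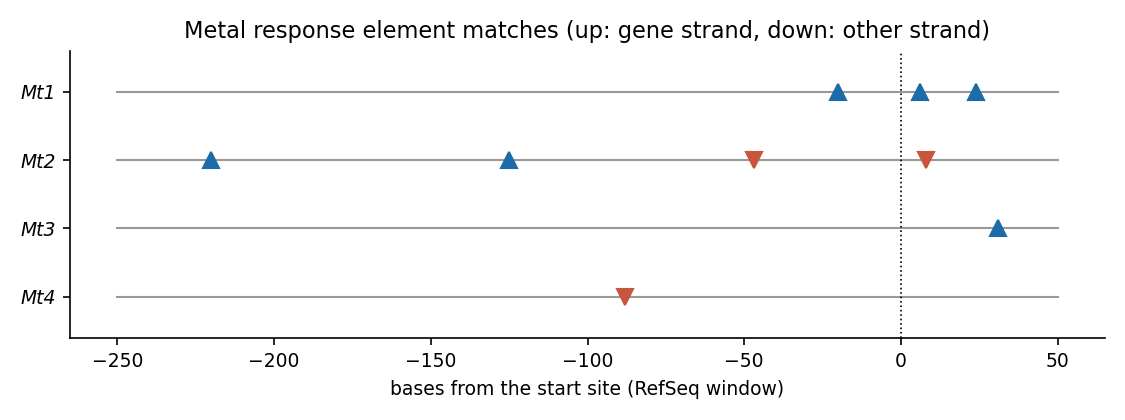
Positions of metal response element matches (triangles, up for the gene's strand and down for the other strand) in the 300-base RefSeq start regions of Mt1, Mt2, Mt3 and Mt4, in bases from the start site. Mt1 has 3 matches and Mt2 has 4, while Mt3 and Mt4 have 1 each.

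Mt1 transcript was less abundant rostrally than caudally in every pool of both strains. Its log2 ratios were -0.80, -0.64 and -0.40 in MF1 pools 1 to 3. In C57 pools 1 to 3 they were -0.48, -0.73 and -0.65. The C57 values lay within the range of the MF1 values, and the pool nearest to 0, MF1 pool 3, was still at -0.40. The mean was -0.62 ± 0.15 (SD, n = 6), which is 1.53-fold more Mt1 caudally than rostrally. Of the 14418 features, 2.96% had a lower mean ratio. The SD of Mt1 over the pools was small for this data set: 4.9% of features had a smaller one, and the median SD of a feature was 0.40.

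The 12 single arrays gave the same picture for Mt1. With rostral RNA in Cy3, the arrays of MF1 pools 1 to 3 gave -0.79, -0.55 and -0.29, and those of C57 pools 1 to 3 gave -0.58, -0.96 and -0.52. With rostral RNA in Cy5, the MF1 arrays gave -0.81, -0.74 and -0.50, and the C57 arrays -0.38, -0.50 and -0.78. All 12 lay below 0, and the mean was -0.61 with rostral RNA in Cy3 and -0.62 with it in Cy5. Both arrays of a pool differed by 0.22 on average for Mt1, from 0.018 in MF1 pool 1 to 0.47 in C57 pool 2, where the median of all features was 0.67. Nr2f1 was also below 0 on 12 of 12 arrays, so Mt1 lay on the side of Nr2f1 throughout, whichever channel was the numerator.

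For scale, 2.5% of the 10596 features with a value in all pools were below 0 in 6 of 6 pools. Of the 10622 features with a value on all arrays, 0.235% were below 0 on 12 of 12. Over both strains 0 of 14418 features, a share of 0%, passed at an adjusted p under 0.05 (limma on pool means), while 1295 (8.98%) had an unadjusted p under 0.05. When limma was run on single arrays, with a random block for pool and a dye term per strain, 21 features passed (0.146%). Of these, 11 were higher and 10 lower rostrally. As Mt1 was chosen with this contrast known, these shares stand as background and nothing is read from them.

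Mt3, the member most closely tied to the nervous system, had ratios on both sides of 0. Its log2 ratios were -0.23, -0.44 and 0.04 in MF1 pools 1 to 3. In C57 pools 1 to 3 they were 0.0082, -0.12 and 0.38. The mean was -0.06 ± 0.28 (SD, n = 6), with 3 of 6 pools on either side of 0, and 38.2% of features had a lower mean. The lowest pools were both of MF1 and the highest was of C57, with the other pools between.

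For Mt3 the dye orientation mattered more than for Mt1. In MF1 pools 1 and 2 the arrays with rostral RNA in Cy5 gave -0.61 and -0.78, against 0.15 and -0.11 with it in Cy3. MF1 pool 3 gave 0.047 and 0.04. In C57 pools 1 to 3 the values were -0.12, -0.19 and 0.61 with rostral RNA in Cy5 and 0.13, -0.05 and 0.16 with it in Cy3. Over the 6 pools the mean was -0.17 ± 0.49 in the first orientation and 0.05 ± 0.11 in the second, so its sign depended on the arrays used. Both negative pool values of MF1 thus came mainly from 1 array each.

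Within each pool Mt1 lay below Mt3. The difference, Mt1 minus Mt3, was -0.57, -0.20 and -0.44 in MF1 pools 1 to 3. In C57 pools 1 to 3 it was -0.49, -0.61 and -1.034. Its mean was -0.56 ± 0.27 (SD, n = 6), below 0 in 6 of 6 pools. As both ratios belong to the contrast the genes were chosen on, the difference is given without a test. Mt1 and Mt2 are closely related in sequence, and whether the Mt1 probe also bound Mt2 transcript was not tested.

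Mt4, the epithelial metallothionein, had ratios of -0.54, -0.51 and 0.67 in MF1 pools 1 to 3 and of 0.27, -0.07 and 0.32 in C57. Its mean was 0.02 ± 0.49 (SD, n = 6), with 3 of 6 pools on either side. In MF1 pools 1 to 3 both arrays of a pool agreed in sign, so MF1 pool 3 differed from the others of its strain in both dyes. Mtf1, the zinc-sensing activator of the family, had ratios of -0.18, 0.003 and -0.04 in MF1 and of 0.12, 0.15 and 0.92 in C57. Its mean was 0.16 ± 0.39 (limma, adjusted p = 0.752), and the value of C57 pool 3 stood apart from the other pools. In C57 pool 2 the arrays of Mtf1 were at -0.76 and 1.07, so that pool's mean of 0.15 hides a wide disagreement.

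**Figure D2:**
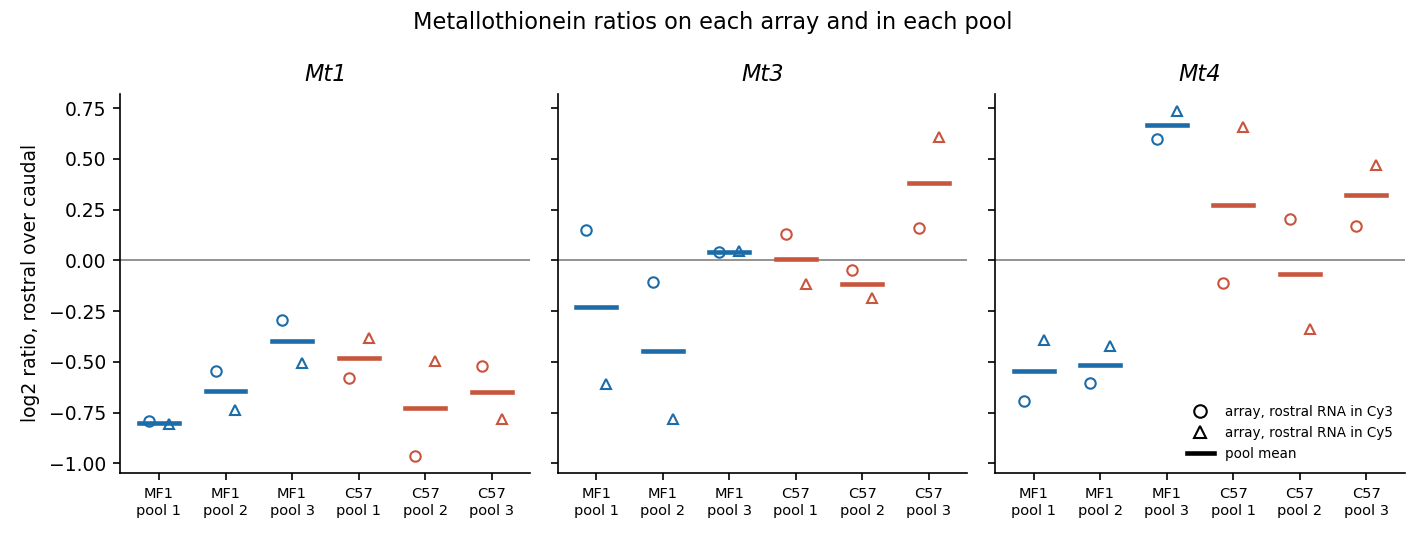
Log2 ratio of rostral over caudal cortex for Mt1, Mt3 and Mt4 in the 3 MF1 pools (blue) and 3 C57 pools (red); circles are arrays with rostral RNA in Cy3, triangles arrays with it in Cy5 and bars pool means. All 12 Mt1 arrays lie below 0, between -0.96 and -0.29, whereas Mt3 and Mt4 lie on both sides.

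Values by strain were in view when the genes were chosen, so the strain difference of the members is given as a description, with no test. The 95% intervals given for Mt1 and Mt3 show its precision over these pools and are not read as tests. Mt1 had a mean of -0.61 ± 0.20 (SD, n = 3) in MF1 and of -0.62 ± 0.13 in C57, which are 1.53-fold and 1.54-fold more transcript caudally. The difference, MF1 minus C57, was 0.0073 with a 95% interval from -0.52 to 0.54 from limma. The interval allows differences nearly as large as the ratio itself. The sign of so small a difference turned under several settings, such as arrays not centred (-0.045) and arrays scaled to a common spread (-0.27).

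Mt3 had a mean of -0.21 ± 0.24 (SD, n = 3) in MF1 and of 0.09 ± 0.26 in C57. The difference was -0.30, with a 95% interval from -0.90 to 0.30. By dye orientation it was -0.55 where Cy5 labelled the rostral RNA and -0.054 where Cy3 did, and without C57 pool 3 it was -0.16. Over all features 0 of 14418 passed in this contrast (limma), a share of 0%, and 879 (6.1%) had an unadjusted p under 0.05.

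**Figure D3:**
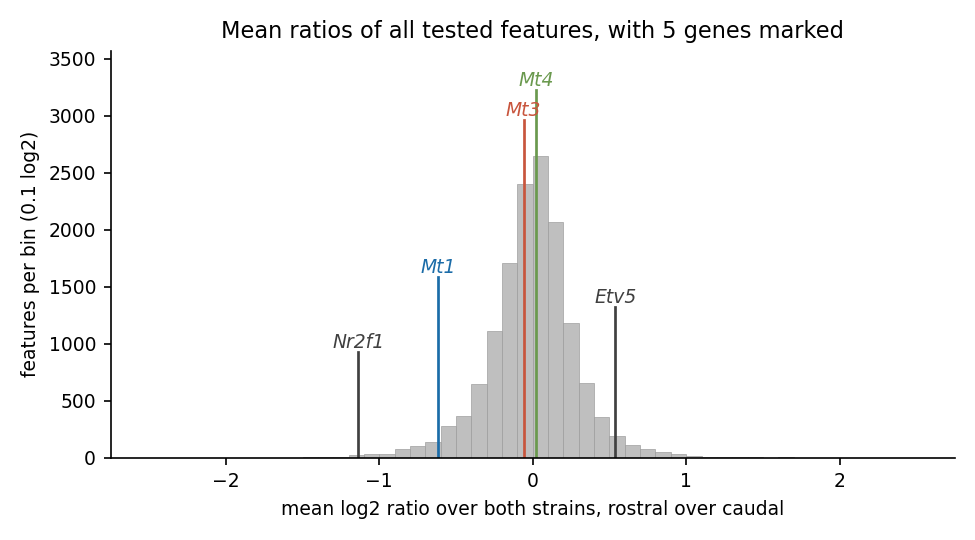
Number of features (bars, bins of 0.1) by mean log2 ratio of rostral over caudal cortex over both strains, for the 14418 features tested, with values beyond the axis ends placed in the end bins; vertical lines mark 5 genes. Mt1 at -0.62 lies in the lower tail, between Nr2f1 at -1.14 and Mt3 at -0.06, while Mt3 and Mt4 lie in the bulk.

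Genes that handle zinc, copper and iron lay on both sides of 0, with medians from -0.06 to 0.02. Of 51 listed genes 34 were tested; by limma 0 passed, as 0 of 14418 features did, and 3 (8.82%) had an unadjusted p under 0.05, against 8.98% of all features. Of these 34, 0 were below 0 in 6 of 6 pools. A mean below that of Mt1 was found for 1 of them, Cp, singled out here after its value was seen. Cp encodes ceruloplasmin, a copper-carrying ferroxidase, and was at -0.81 ± 0.99 (SD, n = 6), with C57 pool 2 at -2.57 and C57 pool 1 at 0.25.

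The 14 tested zinc transporters had a median ratio of 0.02, with 7 on either side of 0, beside a median of 0.0091 over all features. Slc39a13, a zinc transporter of intracellular membranes, was at -0.31 ± 0.23 (SD, n = 6; limma, adjusted p = 0.541), with 5 of 6 pools below 0. Slc30a3, which loads zinc into synaptic vesicles, was at -0.54 ± 0.81 (adjusted p = 0.589). Its mean rested on C57 pool 2 at -2.16, while the other pools ran from -0.37 to 0.09.

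Among copper handling genes 8 of 14 were tested and had a median of -0.06, with 2 above and 6 below 0. Ccs, the chaperone that delivers copper to superoxide dismutase, was at 0.71 ± 0.80 (SD, n = 5; limma, adjusted p = 0.366). Its C57 mean was 1.42 and its MF1 mean 0.00067; means here and below weight both strains equally. Atp7b, a copper-exporting pump, was at -0.57 ± 0.66 (adjusted p = 0.484), with -1.02 in C57 and -0.11 in MF1. The 12 tested iron genes had a median of 0.0036, 7 above and 5 below 0. Ireb2, an iron-regulated RNA-binding protein, was at -0.21 ± 0.20 and Slc25a37, the mitochondrial iron importer, at -0.20 ± 0.38.

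Genes of the oxidative stress response, one of the other signals known to act on Mt1, had a median of 0.09 over 19 tested genes. Of these 16 were above and 3 below 0, beside 7437 above 0 (51.6%) of all 14418 features. By limma 0 of the genes of these signals passed, as 0 of all features did. Gclc, the rate-limiting enzyme of glutathione synthesis, was at 0.54 ± 0.50 (SD, n = 5) and Prdx2, a peroxiredoxin, at 0.28 ± 0.23, above 0 in 6 of 6 pools (limma, adjusted p of 0.549 and 0.573). The 9 tested genes of the glucocorticoid response had a median of -0.12, with 2 above and 7 below 0. Hsd11b1, which regenerates active glucocorticoid, was at -0.76 ± 0.99 (n = 5), with -1.26 in C57 and -0.27 in MF1. Its C57 mean came from pools 2 and 3, at -0.22 and -2.30, and so rested on C57 pool 3. The clock gene Per1 was at -0.16 ± 0.18 (n = 5). The adjusted p of Hsd11b1 and Per1 in limma was 0.58 and 0.739. The 9 tested heat shock and stress genes had a median of -0.02, with 4 above and 5 below 0, Jun at -0.22 ± 0.39 and Atf3 at -0.23 ± 0.69.

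Markers of cell types were read the same way. By limma 0 of them passed, as 0 of 14418 features did. Radial glia, the dividing progenitors of the cortex, had 14 of 16 markers tested and a median of 0.10, with 11 above and 3 below 0. Cdh2, a progenitor adhesion molecule, was at 0.49 ± 0.24 (SD, n = 6) and Hes5, a Notch target, at 0.49 ± 0.50. By strain Hes5 was at 0.09 in MF1 and 0.89 in C57. Tnc, an extracellular matrix protein named here after its value was seen, was at -0.42 ± 0.21, below 0 in 6 of 6 pools (limma, adjusted p = 0.471). Its probes disagreed in sign in MF1 pool 1, at -0.24 and 0.15. The 13 tested markers of postmitotic neurons had a median of 0.06, with 9 above and 4 below 0. Of these, Bcl11b was at 0.41 ± 0.24, with its probes at 0.14 and 0.68, and Tbr1 at 0.53 ± 0.66. On the other side was Fezf2, named after its value was seen, at -0.21 ± 0.27. It was below 0 in 5 of 6 pools (limma, adjusted p = 0.644). As these are ratios, the presence of a cell type cannot be read from the level of its markers.

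The choroid plexus, the secretory epithelium that borders the medial edge of the cortex, had the list median nearest to the mean of Mt1, at -0.61 beside -0.62. With 5 genes tested, this median is the value of Aqp1 alone. Medians below 0 were also found for red blood cells and the glucocorticoid response, both at -0.12, for meninges and mesenchyme at -0.08 and for copper handling at -0.06. The medians of microglia at -0.03, of blood vessels at -0.02 and of heat shock and stress genes at -0.02 were below 0 too. No list was tested as a group. The 5 tested choroid plexus markers of 10 listed were all below 0, and 3 of 5 had an unadjusted p under 0.05 in limma, beside 8.98% of all features. The median in a pool ran from -1.69 in C57 pool 3 to -0.10 in C57 pool 1. Aqp1, a water channel, was at -0.61 ± 0.70 (SD, n = 6), Lmx1a, which also marks the cortical hem, at -1.33 ± 1.06 (n = 4), and Ttr, a thyroid hormone carrier, at -0.92 ± 1.09 (n = 6). Their adjusted p in limma was 0.543, 0.484 and 0.555. Aqp1 was below 0 in 6 of 6 pools, with -0.99, -0.01 and -0.11 in MF1 pools 1 to 3 and -0.10, -0.62 and -1.82 in C57 pools 1 to 3. Lmx1a was below 0 in 4 of 4 pools, at -1.17 and -0.50 in MF1 pools 2 and 3 and at -0.78 and -2.87 in C57 pools 1 and 3. Ttr was below 0 in 5 of 6, with -1.28, -1.20 and -0.84 in MF1 and 1.19, -1.72 and -1.69 in C57. C57 pool 1 was thus the pool in which Ttr was higher rostrally, while Aqp1 and Lmx1a were lower there. Folr1 and Kl, the remaining tested markers, were at -0.08 and -0.05. The part of choroid plexus tissue in the ratio of Mt1 was not tested.

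Markers of other neighbouring or invading cells had medians closer to 0. Meninges and mesenchyme were at -0.08 over 14 genes, 4 above and 10 below 0. Of the 14, 4 had an unadjusted p under 0.05 in limma, beside 8.98% of all features. Of these 4, 3 were below 0 and 1, Ogn, above. Twist2 was at -0.45 ± 0.49 (SD, n = 6), with -0.07 in MF1 and -0.82 in C57, and Ogn at 0.43 ± 0.27. Both probes of Ogn disagreed in C57 pool 2, at -1.98 and 2.39. The first averaged 0.02 over 6 pools, and the second had values in 2 pools only. The meningeal median was below 0 in all 3 C57 pools, between -0.27 and -0.17, and at 0.05, 0.03 and -0.06 in MF1. The part of these cells in the ratio of Mt1 was not tested. Red blood cells were at -0.12 over 6 genes, 1 above and 5 below 0, with Gata1 at 0.41 ± 0.19 and Klf1 at -0.60 ± 0.68 (n = 5 for each). Blood vessels were at -0.02 over 11 genes, 5 above and 6 below 0, with Acta2 at -0.38 ± 0.65 and Rgs5 at 0.17 ± 0.20 (n = 5). By strain Acta2 was at 0.06 in MF1 and -0.83 in C57. Microglia were at -0.03 over 9 genes, 4 above and 5 below 0, with Fcer1g at 0.34 ± 0.48 (n = 5) and Tyrobp at 0.26 ± 0.21. By strain Fcer1g was at -0.09 in MF1 and 0.76 in C57. Below 0 were Cd68 at -0.31 ± 0.46 and Ptprc at -0.37 ± 1.11 (n = 4), both named after their values were seen. Cd68 was at -0.02 in MF1 and -0.60 in C57, and Ptprc rested on C57 pool 1 at -2.01. Over all 14 lists 145 genes were tested, 0 passed and 18 (12.4%) had an unadjusted p under 0.05; the smallest adjusted p was 0.366 (limma).

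**Figure D4:**
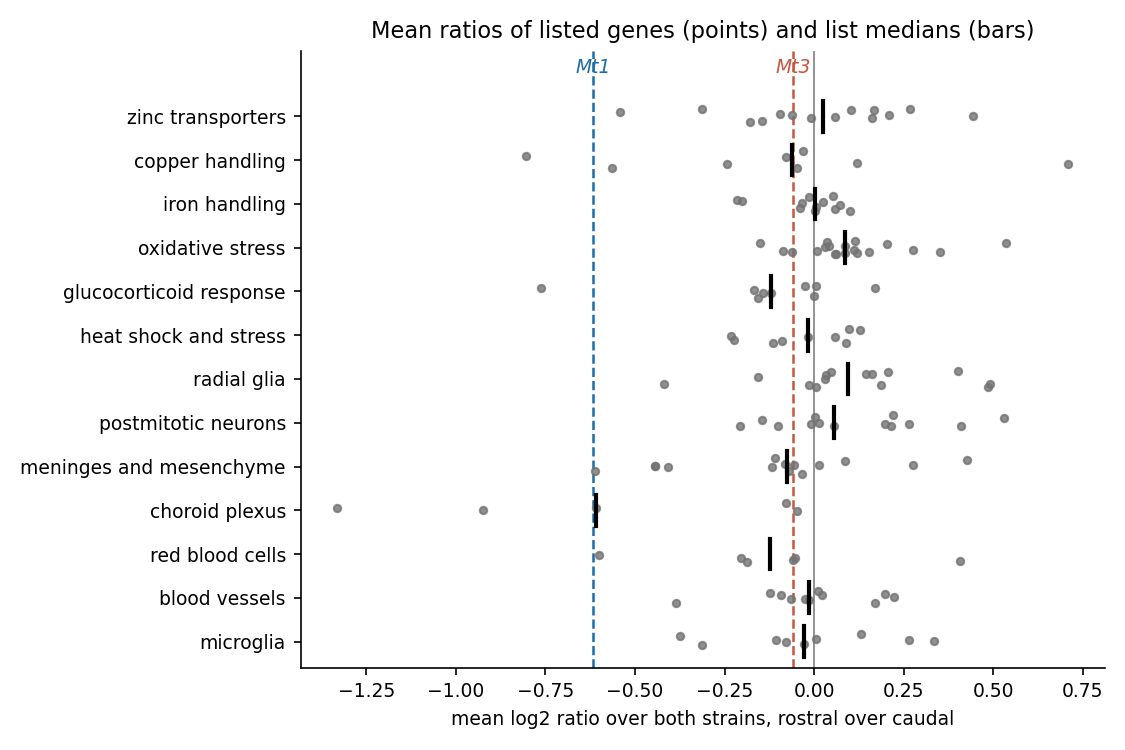
Mean log2 ratio of rostral over caudal cortex over both strains for each tested gene of 13 lists (points) with each list's median (black bars); dashed lines mark Mt1 at -0.62 and Mt3 at -0.06. The choroid plexus median of -0.61, which is the value of Aqp1 among 5 genes, lies at the line of Mt1. The other medians lie between -0.12 and 0.10.

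The measured neighbours of the cluster had means near 0. On the Mt4 side the nearest tested genes were Bbs2, which serves primary cilia, at 0.07 ± 0.38 (SD, n = 6), Nudt21, an mRNA 3′ end processing factor, at 0.03 ± 0.19, and 4930488L21Rik at -0.17 ± 0.27. On the Mt1 side they were Nup93, a nuclear pore subunit, at 0.01 ± 0.28, Herpud1, a protein of endoplasmic reticulum stress, at -0.0024 ± 0.14, and Psme3ip1 at -0.00054 ± 0.13. The adjusted p of these 6 ran from 0.728 for 4930488L21Rik to 0.998 for Psme3ip1 (limma). Their means thus lay between -0.17 and 0.07, against -0.62 for Mt1; whether they differ from Mt1 was not tested. Nup93 was below 0 in all 3 MF1 pools and above 0 in all 3 C57 pools, with means of -0.21 and 0.23.

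Among 8878 other named genes with a value in all 6 pools, the profile nearest to Mt1 was that of Tenm2, a teneurin adhesion receptor of neurons. Likeness was measured as the root mean square difference over the 6 pools, and was 0.19 for Tenm2 against a median of 0.74 over all genes. Tenm2 had ratios of -0.97, -0.60 and -0.62 in MF1 and of -0.74, -0.87 and -0.85 in C57. Its 3 probes averaged -0.89, -0.98 and -0.46, so they differed in size.

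Next came Gpm6a, a membrane glycoprotein of growing neurites, at a difference of 0.23 and a mean of -0.48 ± 0.24 (SD, n = 6), Diras2, a small GTPase, at 0.24 and -0.56 ± 0.16, and Ociad2 at 0.25 and -0.43 ± 0.14. These 4 genes were below 0 in 6 of 6 pools, which follows from their being picked as nearest to Mt1. One probe of Gpm6a was at 0.47 in MF1 pool 2. Mt3 ranked 2031 and Mt4 4227 among the 8878 by likeness to Mt1, with differences of 0.61 and 0.73.

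The genes nearest to Mt3 had means close to 0, with the lowest value in MF1 pool 2 and the highest in C57 pool 3, as Mt3 had. That likeness follows from their being picked as nearest to Mt3. They were Pa2g4, a regulator of growth and ribosome assembly, at a root mean square difference of 0.07, and Tmsb4x, which sequesters actin, at 0.09. Napb, a vesicle fusion factor, was at 0.095 and Armcx1, which is linked to mitochondrial transport in axons, at 0.097. The median over all genes was 0.44 for Mt3, since many genes have ratios near 0. Pa2g4 ran from -0.33 in MF1 pool 2 to 0.36 in C57 pool 3, against -0.44 and 0.38 for Mt3. The probes of Napb disagreed in C57 pool 1, at 0.54 and -0.55. The genes compared were measured on the same arrays.

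**Figure D5:**
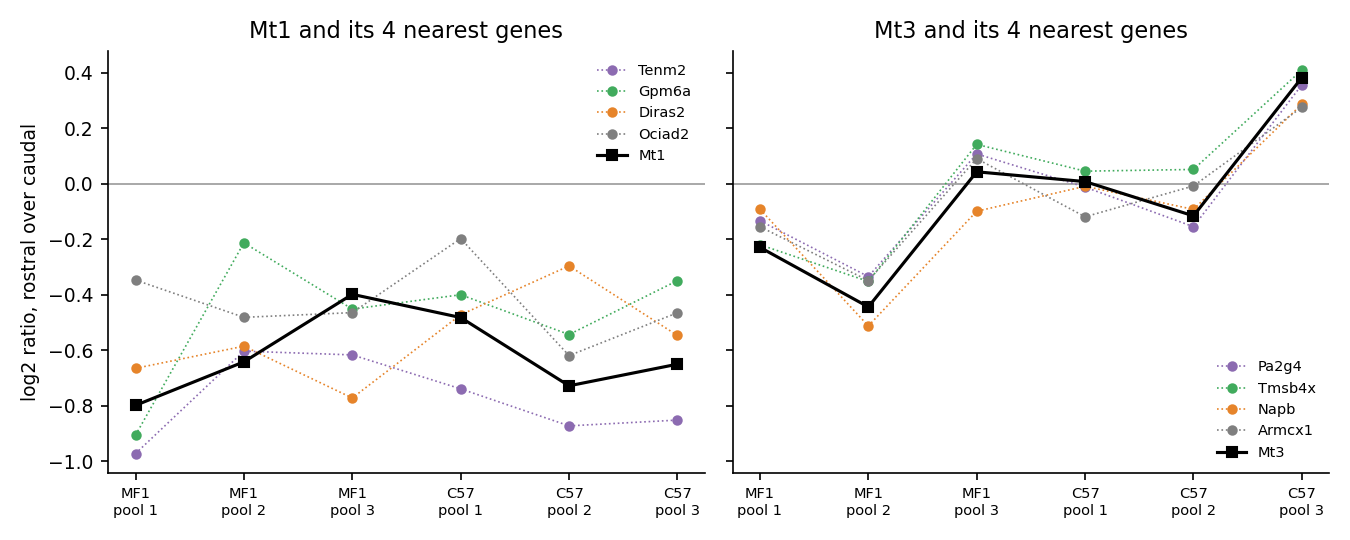
Log2 ratio of rostral over caudal cortex in each of 6 pools for Mt1 (left) and Mt3 (right), in black, with the 4 named genes of smallest root mean square difference in colour; lines only join the values of a gene. Mt1 and its nearest genes stay below 0 in all pools, while Mt3 and its nearest genes are lowest in MF1 pool 2 and highest in C57 pool 3. The nearest genes were picked for this likeness.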

How the data were processed

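The deposited table of the authors holds log2 ratios between the dyes of each array, as read from the values: signed, around 0, with a ceiling of 16.61. For scanner, background correction, normalization and numerator, the sources used here give nothing. RNA was extracted with Trizol per the labels, and cDNA was amplified by the SMART method per the series' design text. Ceiling values (701) were set to missing, each array was centred on its median (from -0.41 to 0.475) and turned to rostral over caudal, and both arrays of a pool were averaged. Probes of a gene were averaged. A feature needed 2 pools per strain. No spot intensities were used, so signal over background is unknown, and the number of arrays limits the precision.

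The fit of pool means used limma 3.58.1 (R 4.3.3), a mean per strain and Benjamini-Hochberg adjustment over 14418 features at 0.05; the code was tested on simulated data. The genes and lists were chosen with earlier results of these data known. The genes named, besides Mt1, Mt3, Mt4 and Mtf1, were the 2 of smallest p per list, the 4 of nearest profile per member and 3 tested neighbours per side. Cp, Ttr, Folr1, Kl, Tnc, Fezf2, Cd68 and Ptprc were named after their values were seen, and Nr2f1 and Etv5 for the sign. Start regions are RefSeq's (GRCm38.p6), matched for 3 of 3 members; probe symbols come from the platform table, where 16184 probes matched a RefSeq gene. The table held 0 columns of other samples.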

Additional observations from a re-analysis of the deposited data

Results flagged for a closer look

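Of 53 named genes, 5 had a pool that stood apart from the others by Dixon's test. Fezf2 was not among the 53. Chance flags about 1 in 20 groups. Mtf1 was at 0.92 in C57 pool 3, where the next highest pool was at 0.15. Slc30a3 was at -2.16 in C57 pool 2, where the next lowest was at -0.37. Atf3 was at -1.60 in C57 pool 2, where the next lowest was at -0.22. Gata1 was at 0.71 in C57 pool 3, where the next highest was at 0.36. Ttr was at 1.19 in C57 pool 1, where the next highest was at -0.84. For Atf3 and Nup93 all MF1 pools lay on one side of 0 and all C57 pools on the other. The differences, MF1 minus C57, were 0.81 and -0.43, and by limma neither passed (adjusted p of 0.908 and 0.903). The share of all features split in this way was not counted, so nothing is read from these 2 genes. Mt1 and Mt3 were not among the genes that stood apart.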

How the results depend on the processing

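The mean ratio of Mt1 ran from -0.81 to -0.57 over the 17 settings that kept the sign convention. It was -0.81 with arrays not centred, where the median of all features was -0.18 and Mt1 lay 0.63 below it, and from -0.67 to -0.57 with a pool left out. With every sign turned it would be 0.62, that of Mt3 0.059, and their strain differences -0.0073 and 0.30. The mean of Mt3 was 0.055 with rostral RNA in Cy3 only, and from -0.13 to -0.0003 with a pool left out. The strain difference of Mt1 was -0.045 with arrays not centred, -0.27 with arrays scaled, -0.13 with rostral RNA in Cy5 only, and from -0.10 to 0.10 with a pool left out. That of Mt3 was -0.55 with rostral RNA in Cy5 only, -0.054 with it in Cy3 only, and from -0.43 to -0.16 with a pool left out. Over both strains 21 features passed in the fit of 12 arrays and 5 with 3 pools per strain required. The other settings passed 0. For the strain difference every setting run passed 0. With the pool number as a replicate block the difference of Mt1 was 0.0073 and that of Mt3 -0.30; same-numbered pools of the strains correlated at -0.14, 0.06 and -0.004 in their deviations, so the numbers did not pair them. Signal over background, which sets the error of a ratio, is unknown here.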
